A study of Homo sapiens with 4 samples.

Results

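Aminoacyl-tRNA synthetases are the enzymes that load each amino acid onto its tRNA. The members described here are 36 nuclear genes for these enzymes and 2 scaffold genes, chosen by their symbols. They comprise 20 genes whose product works in the cytosol, 16 whose product works in mitochondria (symbols ending in 2), and AIMP1 and AIMP2. These last are scaffolds of the multisynthetase complex and were kept apart, although the symbol AIMP2 ends in 2. Of the 38 genes, 32 were among the 12153 genes of the count table and 31 held enough counts to be tested, out of 10779 genes tested. CARS, FARSB, HARS, LARS, TARS2 and WARS2 were not analysed here, and TARS, with 22 counts over all libraries, fell below the limit on low counts.

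The cells were PLC/PRF/5, a human hepatocellular carcinoma line. The 2 control libraries (NC in the titles) and the 2 libraries with lentiviral interference against USP22 (shUSP22) were all made from cells kept in hypoxia (1% oxygen with 5% carbon dioxide, 48 h). No normoxic library was analysed here. The labels do not name the short hairpin, nor say whether the knockdown cells were a pool or a clone or whether the 2 libraries of a group came from separate cultures, so p-values measure the spread between these libraries, which may be technical.

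Cytosolic and mitochondrial protein synthesis use separate sets of synthetases, almost all encoded in the nucleus. Most amino acids have 1 gene for each compartment, whereas the genes GARS and KARS encode the enzyme of both. EPRS joins the enzymes for glutamate and proline in a single protein, and mitochondrial glutaminyl-tRNA is made from glutamyl-tRNA by the amidotransferase GatCAB. Several cytosolic synthetase genes are known targets of ATF4, the transcription factor of the amino acid response, which acts through composite C/EBP-ATF response elements.

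Library totals ran from 15027209 to 17194929 counts. USP22, the targeted gene, had 2937 and 2573 CPM (reads counted for a row, scaled by library size after TMM normalization) in control replicates 1 and 2 and 360 and 447 CPM in knockdown replicates 1 and 2, which left 14.6% of the control level (log2 fold change −2.77 ± 0.17 SE, adjusted p = 1.36e-06). All adjusted p-values are from edgeR's quasi-likelihood test with Benjamini-Hochberg adjustment over 12337 transcripts. All 9 hepatocyte markers had tested rows, led by TF and APOB at 16693 and 10211 CPM in control, while the row of HNF4A stood at 0.19 CPM. These markers summed to 29748 and 27644 CPM in control and to 44499 and 34925 CPM in knockdown replicates 1 and 2. APOB carried the higher sum: without it the other 8 summed to 18121 and 18848 CPM in control and to 16973 and 18295 CPM in the knockdown. Of the 9 markers AFP, APOB and FGB rose and none fell by edgeR's test. Of the 9 tested markers of other cell types PECAM1 rose, HBB and KRT7 fell, and 6 did not pass. Over all tested genes 20.1% were called. The part of these differences in the results was not tested. Markers of other cell types summed to 136 to 240 CPM per library (9 of 15 tested), led by SOX9, and PTPRC, CD3E, KDR, DCN and ACTA2 were not analysed here.

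The core of the C/EBP-ATF element was searched in RefSeq promoters (assembly GRCh38.p14, 250 bases before to 50 after a start), since several synthetases are known to be controlled through it. The letters searched were TGATGNAA on both strands. Of the 31 tested members, 26 had a promoter entry. The core was present in 5 of the 12 cytosolic genes with an entry, in 1 of 12 mitochondrial genes (YARS2) and in neither scaffold. Over all tested genes with an entry 2.48% held it, and over all 35116 promoters 3.62%. The E-box CACGTG, searched in the same windows, was in 5 of the 26 members (19.2%, against 12.3% of the tested genes), with 3 of them mitochondrial. The sites of the 5 cytosolic genes follow, on the strand of the gene, with the match in capitals (TGATGNAA, or TTNCATCA where it lies on the opposite strand).
AARS, chr16:70289675-70289704: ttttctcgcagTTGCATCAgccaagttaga
NARS, chr18:57621804-57621833: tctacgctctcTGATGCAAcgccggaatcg
MARS, chr12:57488053-57488082: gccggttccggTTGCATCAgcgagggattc
IARS, chr9:92293692-92293721: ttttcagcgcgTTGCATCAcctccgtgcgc
GARS, chr7:30594834-30594863: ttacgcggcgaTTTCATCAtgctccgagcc
In AARS the match began 187 bases before the start, in GARS 33 and in IARS 13 bases before it. That of MARS began 4 bases before its start and ran across it, and that of NARS began at base 15 after the start. A match is a description of letters and says nothing of binding in these cells.

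Few synthetase genes passed the test, and those that did moved in both directions. Of the 15 tested cytosolic enzymes 2 rose (VARS and QARS), 2 fell (AARS and NARS) and 11 did not pass. Of the 14 tested mitochondrial enzymes 2 rose (LARS2 and MARS2), none fell and 12 did not pass. Neither scaffold passed. Over all tested genes, each by its row with the most counts, 20.1% were called (9.08% higher and 11.1% lower), so the 6 of 31 members called (19.4%) were close to the share among all genes. No mitochondrial enzyme was lower by DESeq2 either, and at an unadjusted p under 0.05 in edgeR's test 0 were lower and 6 were higher. At that unadjusted p, 3 cytosolic enzymes were lower and 3 higher. Over all tested genes 3607 of 10777 reached it in either direction. For the scaffolds the counts were 0 in both directions, by DESeq2 and at that unadjusted p.

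**Figure D1:**
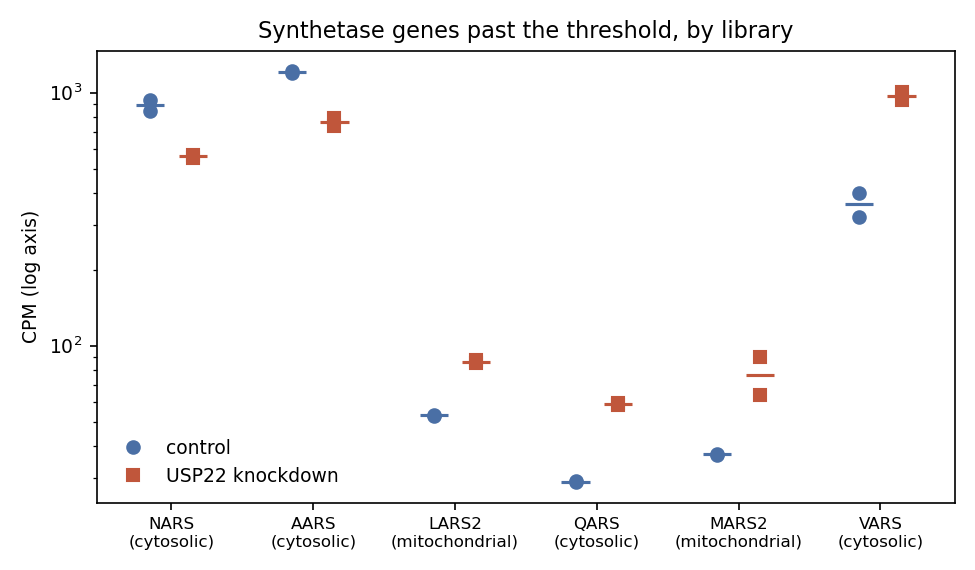
CPM (log axis) of the 6 synthetase genes past the threshold in each control library (circles) and USP22 knockdown library (squares), with horizontal lines at the means of 2 libraries. NARS and AARS lie lower in both knockdown libraries, and LARS2, QARS, MARS2 and VARS lie higher in both.

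VARS, the valyl-tRNA synthetase, which is known to bind the elongation factor complex that loads tRNA onto the ribosome, had the largest change among the rows taken for the members. Its level was 322 and 403 CPM in control and 932 and 1008 CPM in knockdown libraries. The groups did not overlap, and the lower knockdown library stood well above the higher control library. VARS rose 2.68-fold (log2 fold change 1.42 ± 0.16 SE, adjusted p = 0.000101), and it was called in all 13 alternatives, with log2 fold changes from 1.27 to 1.61.

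QARS, the glutaminyl-tRNA synthetase and a member of the multisynthetase complex, had 29.2 and 28.9 CPM in control and 59.6 and 58.1 CPM in knockdown libraries. Both libraries of each group lay close together. QARS rose 2.03-fold (1.02 ± 0.20 SE, adjusted p = 0.00305). RefSeq lists 2 mRNA accessions for this gene, and the table held 1 of them.

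AARS, the alanyl-tRNA synthetase and the first of the sequences above, had the highest mean CPM of all members (not corrected for length). It stood at 1199 and 1214 CPM in control and at 797 and 738 CPM in knockdown libraries. NARS, the asparaginyl-tRNA synthetase, stood at 938 and 845 CPM in control and at 570 and 550 CPM in knockdown libraries. In both genes each knockdown library was below each control library. AARS fell by 0.65 on the log2 scale (SE 0.15, adjusted p = 0.00745) and NARS by 0.67 (SE 0.15, adjusted p = 0.00741). Each call was lost when a certain control library was left out. The adjusted p of AARS was 0.0502 without control replicate 2 (2.33e-06 to 0.529 over all 13 alternatives), and that of NARS was 0.0881 without control replicate 1 (from 2.41e-06 to 0.48).

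LARS2, the mitochondrial leucyl-tRNA synthetase, had 52.9 and 53.4 CPM in control and 85.2 and 87.8 CPM in knockdown libraries. MARS2, the mitochondrial methionyl-tRNA synthetase, had 37.4 and 36.98 CPM in control and 63.7 and 90.03 CPM in knockdown libraries. The control libraries of both genes agreed closely, and the knockdown libraries of MARS2 were further apart. LARS2 rose 1.63-fold (0.70 ± 0.18 SE, adjusted p = 0.0151) and MARS2 rose 2.07-fold (1.05 ± 0.21 SE, adjusted p = 0.00405). RefSeq lists 2 mRNA accessions for LARS2 and 1 for MARS2, and the table held 1 row of each. LARS2 did not pass without control replicate 1 (adjusted p = 0.107) or control replicate 2 (adjusted p = 0.0851), and its adjusted p ran from 0.000271 to 0.45 over the 13 alternatives.

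The library kit does not mark strand, so reads of genes with overlapping exons cannot be told apart. In GENCODE models, 15 of the 31 tested members share exon bases with a gene on the other strand. None of the 6 called members is among them, although a microRNA gene lies within exon bases of QARS on the same strand.

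**Figure D2:**
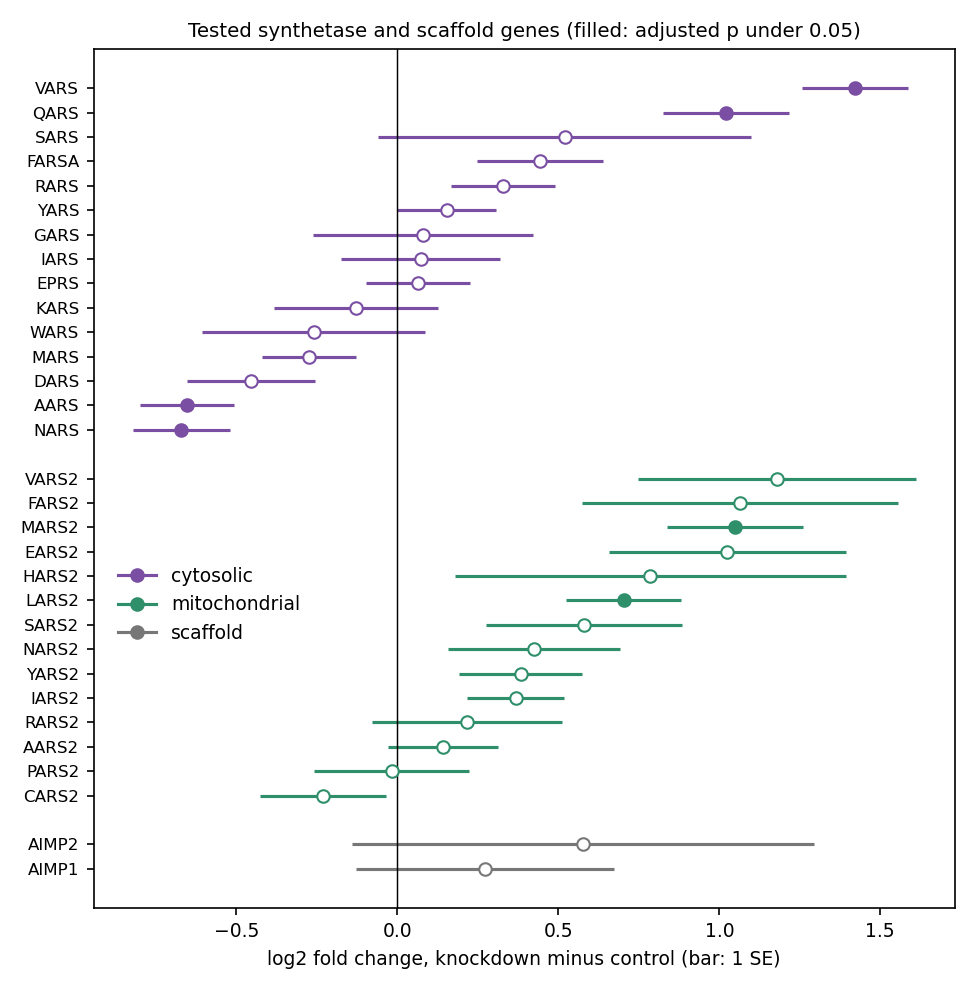
Log2 fold change, knockdown minus control, of the 31 tested members, with bars of 1 SE and filled symbols for an adjusted p under 0.05. Cytosolic enzymes lie on both sides of 0, whereas 12 of the 14 mitochondrial enzymes lie above 0.

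The cytosolic enzymes spread over both directions. Their log2 fold changes ran from −0.67 (NARS) to 1.42 (VARS) with a median of 0.07, 9 of them above 0 and 6 below. Both knockdown libraries lay above both control libraries for 5 enzymes (VARS, QARS, FARSA, RARS and YARS) and below them for 5 (AARS, NARS, MARS, DARS and KARS). Over all tested genes the groups failed to overlap in 29.8% with knockdown higher and in 31.4% with knockdown lower, against 33.3% each way here, so these shares were close to those of all genes.

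Next to AARS in mean CPM, without correction for length, stood EPRS and IARS2. EPRS, the joint enzyme for glutamate and proline, had 964 and 871 CPM in control and 1075 and 843 CPM in knockdown libraries. Its groups overlapped, and its log2 fold change was 0.06 ± 0.16 (SE, adjusted p = 0.835). IARS2, the mitochondrial isoleucyl-tRNA synthetase, had 797 and 773 CPM in control and 1085 and 939.7 CPM in knockdown libraries. Its groups did not overlap, but it did not pass (0.37 ± 0.15 SE, adjusted p = 0.111).

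Within the multisynthetase complex, which holds a fixed subset of the cytosolic enzymes together, 7 enzymes were tested: EPRS, IARS, QARS, MARS, KARS, RARS and DARS. Of these only QARS rose and none fell by edgeR's test (14.3% called, against 20.1% of all tested genes), and their median log2 fold change was 0.06. At an unadjusted p under 0.05, DARS was also lower (log2 fold change −0.45 ± 0.20, adjusted p = 0.134). The scaffolds AIMP1 and AIMP2 had log2 fold changes of 0.27 ± 0.40 and 0.58 ± 0.72, at control means of 3.25 and 0.75 CPM. With these SEs, large changes could also have been missed at these low counts. A second tested row of AIMP1 went the other way (−0.74 ± 0.82), with 27 and 8 counts in control against 12 and 9 in knockdown libraries. Of the 8 tested cytosolic enzymes outside the complex 1 rose and 2 fell (37.5% called), and the difference between these shares was not tested.

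The 6 genes with a C/EBP-ATF core were not alike in their changes. AARS and NARS fell. MARS, at 871 and 860 CPM in control and 711 and 719 CPM in knockdown libraries, did not overlap between groups but did not pass (−0.28 ± 0.15, adjusted p = 0.215). On the other strand its exons share 519 bases with ARHGAP9, whose row did not pass the filter on low counts, and 355 bases with DDIT3. The row of DDIT3, at 6.63 and 9.34 CPM in control and 3.31 and 3.61 CPM in knockdown libraries, fell (−1.20 ± 0.35 SE, adjusted p = 0.0308). YARS2, the mitochondrial gene with a core, had 48.6 and 56.9 CPM in control and 64.6 and 72.8 CPM in knockdown libraries and did not pass (0.38 ± 0.19, adjusted p = 0.189). IARS and GARS had log2 fold changes of 0.07 ± 0.25 and 0.08 ± 0.34, with overlapping groups. RefSeq lists 21 mRNA accessions for IARS and 2 for GARS, and their single rows held 16.7 and 16.8 CPM (IARS) and 5.24 and 5.26 CPM (GARS) in control. The core was not present in the window of QARS, LARS2 or MARS2, which says nothing of the factor at these genes. DARS, VARS, YARS, AARS2 and VARS2 had no promoter entry.

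The mitochondrial enzymes lay mostly above their controls. Both knockdown libraries were above both control libraries for 11 of 14 (78.6%, against 29.8% of all tested genes), below them for none, and overlapped in CARS2, PARS2 and RARS2. HARS2, 1 of the 11, had 19 and 17 counts in the control against 37 and 25 in the knockdown libraries. Its other row, with 14 and 22 against 20 and 7 counts, overlapped between groups (log2 fold change −0.39 ± 0.78 SE). Exons of HARS2 also overlap those of HARS on the other strand. The other tested second rows, of FARS2 and SARS2, lay above 0 (1.42 ± 0.85 and 0.97 ± 0.71 SE). Over the rows taken for the 14 enzymes, the log2 fold changes ran from −0.23 (CARS2) to 1.18 (VARS2), with a median of 0.50. Among the 12 that did not pass, the adjusted p lay between 0.0705 and 0.973. The largest of these differences belonged to rows with few counts. VARS2, the mitochondrial valyl-tRNA synthetase, had 34 and 28 counts in the control against 58 and 85 in the knockdown libraries (1.18 ± 0.43 SE, adjusted p = 0.076). FARS2, which charges mitochondrial tRNA with phenylalanine, had 21 and 27 counts in the control against 52 and 49 in the knockdown libraries (1.06 ± 0.49 SE, adjusted p = 0.156). EARS2, which charges mitochondrial tRNA with glutamate, had 44 and 70 counts in the control against 100 and 135 in the knockdown libraries (1.02 ± 0.37 SE, adjusted p = 0.0705). Exons of VARS2 overlap those of GTF2H4 on the same strand and exons of EARS2 those of UBFD1 on the other strand, while FARS2 had no such overlap in the annotation.

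**Figure D3:**
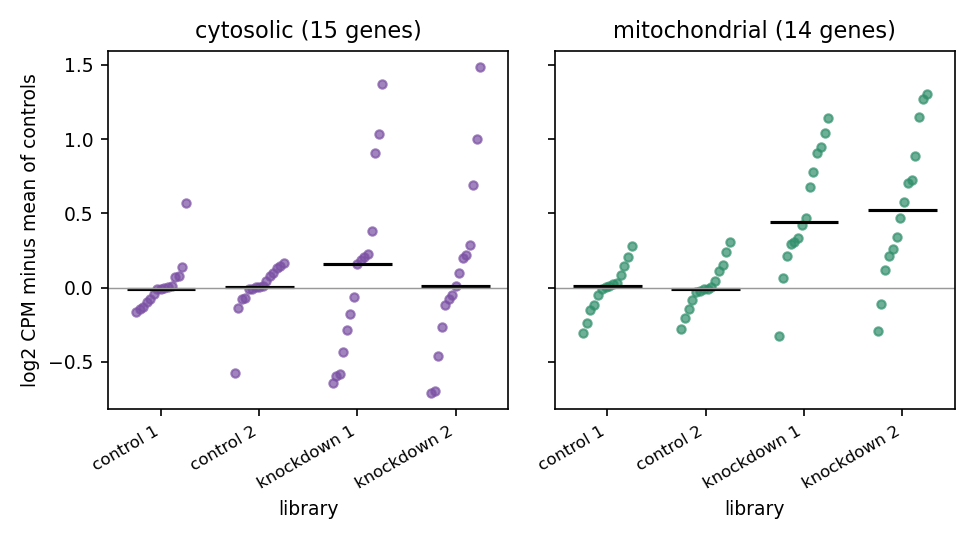
Log2 CPM of each tested member minus the mean of its control libraries, by library, for 15 cytosolic (left) and 14 mitochondrial enzymes (right), with medians as black lines. The medians of the mitochondrial enzymes in the knockdown libraries lie at 0.44 and 0.52, those of the cytosolic enzymes at 0.16 and 0.01.

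Set side by side, the mitochondrial median exceeded the cytosolic median by 0.43 on the log2 scale, with a spread of 0.12 (pooled SD of this difference over libraries of 1 group). Relative to the control mean, knockdown replicates 1 and 2 had medians of 0.44 and 0.52 over the mitochondrial enzymes and of 0.16 and 0.01 over the cytosolic ones. Over all tested genes the medians were 0.0045 and −0.0053. Genes are not replicates, and no test was made of this contrast. The difference was above 0 in all 13 alternatives, from 0.26 to 0.56. It was 0.26 among members with 1 RefSeq mRNA accession (8 cytosolic and 5 mitochondrial), against 0.43 over all.

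Level and annotation differed between the compartments as well, and their part in the contrast was not tested. The median of mean CPM, without correction for length, was 213 for the tested cytosolic and 21.9 for the mitochondrial enzymes. Several RefSeq mRNA accessions were listed for 9 of the 14 mitochondrial and 7 of the 15 cytosolic genes, and a row of such a gene can hold a small part of its reads. Among members with 1 accession, levels per transcript length can be compared. In control cells the 8 cytosolic genes had 84.02 to 347 CPM per kb with a median of 176, and the 5 mitochondrial genes 10.9 to 220.4 with a median of 24.8. AARS was highest among the first and IARS2 among the second. Above a mean of 100 CPM, the 3 mitochondrial genes (AARS2, CARS2 and IARS2) had a median log2 fold change of 0.14 and the 8 cytosolic genes one of 0.11. Below 100 CPM the medians were 0.70 for 11 mitochondrial and 0.07 for 7 cytosolic genes. Over all tested genes they were 0.04 above and −0.03 below that level. The 8 cytosolic genes above 100 CPM were the 8 with 1 accession, and the 7 below it were those with several. Level and annotation therefore cannot be told apart among the cytosolic genes, and a low row need not mean a low gene.

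**Figure D4:**
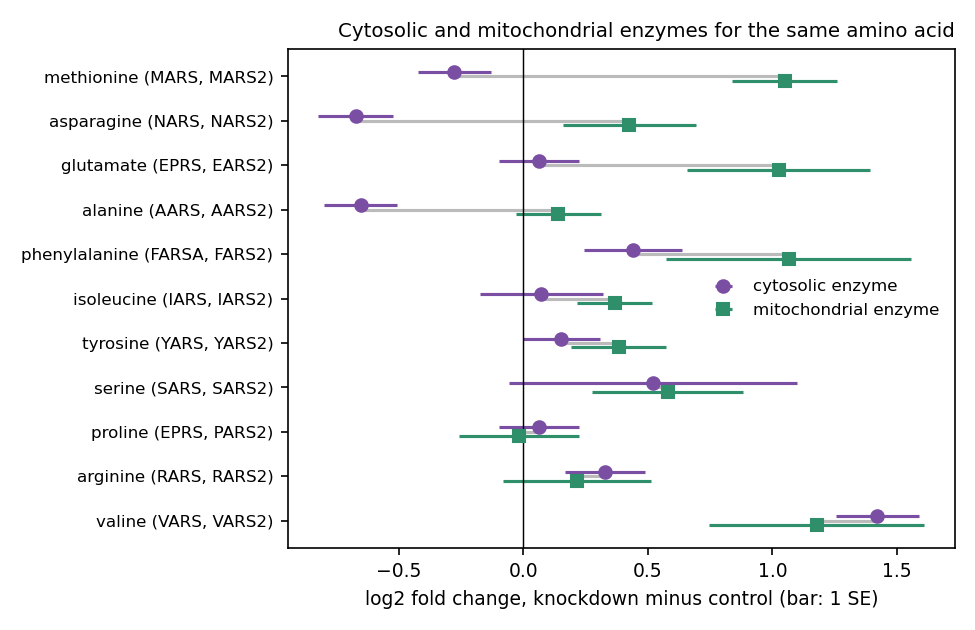
Log2 fold change, knockdown minus control (bars of 1 SE), of the cytosolic (circles) and mitochondrial (squares) enzymes for the same amino acid, for 11 pairs ordered by their difference. In 8 pairs the mitochondrial enzyme lies further to the right, by the most for methionine (1.32). The cytosolic enzyme for phenylalanine is shown by FARSA alone.

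For 11 amino acids both enzymes were tested, with EPRS serving in the pairs for glutamate and proline. For phenylalanine the cytosolic side was FARSA alone, as FARSB was not analysed here. The mitochondrial enzyme had the higher log2 fold change in 8 pairs and the cytosolic enzyme in 3. The median difference, mitochondrial minus cytosolic, was 0.29. The difference was largest for methionine, 1.32 ± 0.26 (SE, from the errors of both enzymes), with MARS at −0.28 and MARS2 at 1.05. It was next largest for asparagine, 1.10 ± 0.31. NARS2, the mitochondrial asparaginyl-tRNA synthetase, had 18.7 and 12.7 CPM in control and 19.04 and 23.1 CPM in knockdown libraries, a difference that did not pass (0.43 ± 0.27, adjusted p = 0.302). In the pair for valine, VARS and VARS2 had log2 fold changes of 1.42 and 1.18, and their difference of −0.24 ± 0.46 was smaller than its error, as were those for tyrosine, arginine, proline and serine.

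WARS, the tryptophanyl-tRNA synthetase, which interferon gamma is known to induce, was 1 of 7 members with more than 1 row. Its row with the most counts, NM_173701.1, had 99 and 116 counts in the control against 67 and 116 in the knockdown libraries. It did not pass (−0.26 ± 0.35 SE, adjusted p = 0.664). The other row, NM_004184.3, chosen after its values were seen, had 138 and 183 counts in the control against 19 and 40 in the knockdown libraries, without overlap. That row fell by 2.47 on the log2 scale (SE 0.40, adjusted p = 0.00104). With the rows summed, WARS fell by 1.16 (adjusted p = 0.0147). The difference between the rows was not tested. RefSeq lists 4 mRNA accessions for the gene, and its exons overlap those of WDR25 on the other strand.

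**Figure D5:**
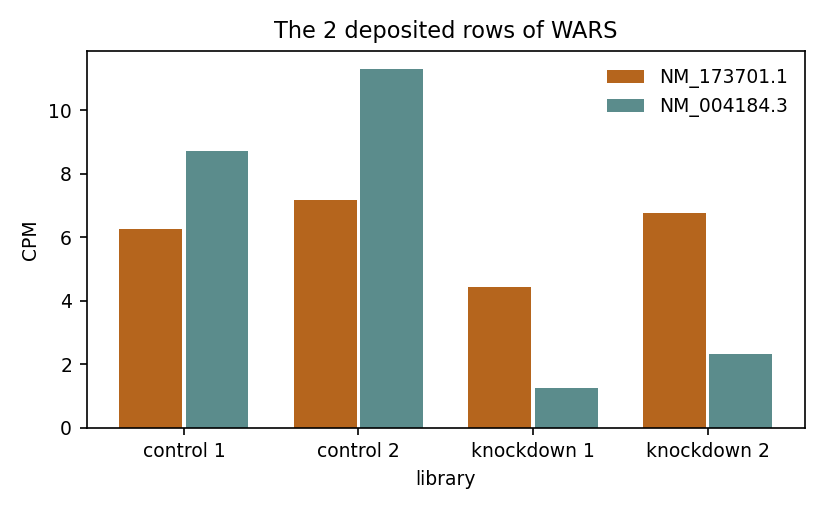
CPM of the 2 deposited rows of WARS in each library. NM_173701.1 lies between 4.43 and 7.17 CPM throughout, whereas NM_004184.3 lies at 8.71 and 11.3 CPM in control and at 1.26 and 2.33 CPM in knockdown libraries.

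In the authors' deposited table, 8 of the tested members had a q-value under 0.05 with a positive log2 fold change and 2 with a negative one. The share of all genes under that q-value was not computed here, so these counts are no result about the members as a group. The members under it included all 6 called here, with the same sign. The other 4 were RARS, EARS2, IARS2 and VARS2, with q-values of 0.039, 0.0325, 0.00665 and 0.0436 in the authors' deposited table.

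The other factors listed act in tRNA end processing, export, editing and delivery to the ribosome, as a scaffold of the complex, or in elongation. Of 25 listed, 22 were tested, of which 3 rose, 2 fell and 17 missed the threshold. The share called was 22.7%, near the 20.1% of all tested genes. Their median log2 fold change was 0.34. Both knockdown libraries lay above both control libraries for 14 of the 22 and below them for 3. Over all tested genes these shares were 29.8% and 31.4%. The list mixes compartments. The mitochondrial factors QRSL1, GATB, MTFMT, TUFM and GFM1 were all among those higher, and so were others such as EEF1E1 and EEF2. Those lower were EEF1A2, EEF1G and XPOT. A lean to higher values was thus not particular to the synthetases, and whether it differed by compartment in this list was not tested. PSTK, the kinase that prepares the tRNA for selenocysteine, rose from 88 and 81 counts to 165 and 212 (1.14 ± 0.30 SE, adjusted p = 0.0193). NEMF, which extends stalled chains with charged tRNA, rose from 23 and 20 counts to 75 and 59 (1.63 ± 0.47 SE, adjusted p = 0.0281). PSTK did not pass without control replicate 2 (adjusted p = 0.0703) or knockdown replicate 2 (adjusted p = 0.056), and the highest value of its alternatives was 0.127. NEMF did not pass without control replicate 2 (adjusted p = 0.0577) or knockdown replicate 1 (adjusted p = 0.162, the highest of its alternatives). DTD2, a deacylase of mischarged tRNA, had 35.2 and 34.8 CPM in control and 60.7 and 56.5 CPM in knockdown libraries and rose (0.74 ± 0.19 SE, adjusted p = 0.0166). It did not pass without control replicate 1 (adjusted p = 0.0984) or control replicate 2 (adjusted p = 0.0931), and the highest value of its alternatives was 0.389. Without control replicate 2, none of these factors was called higher, and without knockdown replicate 1 the number was 6.

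EEF1A2, the tissue-restricted form of the factor that brings charged tRNA to the ribosome, had 93.2 and 101 CPM in control and 9.12 and 7.92 CPM in knockdown libraries. It fell by 3.51 on the log2 scale (SE 0.22, adjusted p = 1.36e-06), an 11.4-fold decrease. The common form EEF1A1 stood at means of 17168 CPM in control and 17766 CPM in the knockdown (0.05 ± 0.12, adjusted p = 0.833). XPOT, which exports tRNA from the nucleus, had 664 and 729 CPM in control and 489 and 481 CPM in knockdown libraries. XPOT fell by 0.52 (SE 0.15, adjusted p = 0.0281), but did not pass without control replicate 1 (adjusted p = 0.0964) or control replicate 2 (adjusted p = 0.235), and the highest value of its alternatives was 0.876. EEF1E1, the third scaffold of the multisynthetase complex, did not pass (0.31 ± 0.21, adjusted p = 0.354). QRSL1 and GATB, subunits of GatCAB, had log2 fold changes of 0.51 and 0.54 and adjusted p-values of 0.0645 and 0.0654.

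Many genes of the amino acid response, which share ATF4 as a known activator with several synthetase genes, fell in the knockdown. Of 34 listed, 28 were tested, of which 15 fell (53.6%, against 11.1% of all tested genes), 0 rose and 13 missed the threshold. Their median log2 fold change was −0.82, and no test of the list was made. The list was chosen with earlier results of these data known, so its share is a description only. No member was higher by DESeq2 or at an unadjusted p under 0.05 in edgeR's test. STC2, a secreted glycoprotein, fell 8.95-fold, from 577 and 700.0 CPM to 102 and 40.9 CPM (adjusted p = 3.94e-05). PPP1R15A fell 4.03-fold and CHAC1 fell 3.44-fold. ASNS, asparagine synthetase, which makes the amino acid that NARS loads, fell from 175 and 164 counts to 45 and 56 (−1.76 ± 0.33, adjusted p = 0.00267, named after its values were seen). RefSeq lists 7 mRNA accessions for ASNS, and these counts are of 1 of its 2 rows. The row of ATF4 itself differed between the knockdown libraries, with 11.5 and 24.3 CPM against 14.02 and 14.3 CPM in control. Without knockdown replicate 1, ATF4 was called higher. The C/EBP-ATF core was present in the promoters of 7 of 23 such genes with an entry (30.4%, against 2.48% of all tested genes with an entry). Of these 7, ASNS, CHAC1, SLC1A4, SLC3A2 and SLC7A1 fell. CEBPG and SLC1A5 did not pass (adjusted p = 0.409 and 0.809 by edgeR's test). The list was made of genes known to be induced by ATF4, which acts through this element. A share of cores above that of all genes therefore follows from how the list was made.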

How the data were processed

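RNA of 4 libraries was measured by sequencing, with libraries made by the NEBNext Ultra RNA kit, per the labels' protocols. The authors deposited raw counts per RefSeq mRNA accession in 14540 rows, together with p-values, q-values and log2 fold changes of their own comparison. Tools named in the submitters' processing notes are bcl2fastq, HISAT2 2.1.0 and HTSeq, with the build hg19. Neither the counting settings nor the tool of that comparison is stated in these notes.

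Rows were kept by filterByExpr of edgeR 4.0.16 (minimum count 10), which left 12337 and removed 2203. Knockdown minus control was fitted to the deposited counts with glmQLFit and glmQLFTest, TMM normalization and no covariate, with Benjamini-Hochberg adjustment over all rows and a threshold of 0.05. The common biological coefficient of variation was 22.1%. The SE is the log2 fold change divided by the square root of F. The script was tested on simulated data. Each gene was taken by its row with the highest summed count. Transcript lengths and exon overlaps came from GENCODE release 29, and accession numbers per gene and promoters from RefSeq (GRCh38.p14), used for names and sequence only.

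The members and lists were chosen with earlier results of these data known. Every member past the threshold is given in full. Of the rest, the 3 with the highest mean CPM and the 2 amino acid pairs with the largest difference are named, as are the 3 largest calls in each direction of each list. A further gene beside the tRNA and elongation factors listed is not reported here. The other named genes were chosen after their values were seen. Alternatives were DESeq2 1.42.0 and its size factors, limma-voom (limma 3.58.1), other filters, a replicate block, leaving out each library, a threshold of 0.01, glmTreat against a fold of 1.5, rows summed per gene and omission of GARS and KARS. Members with 1 accession were added after seeing the data.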

Additional observations from a re-analysis of the deposited data

How the results depend on the processing

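USP22 and VARS were called under every alternative. Without 1 library at a time, the number of all transcripts higher lay between 685 and 1340 and of those lower between 1020 and 1297. Cytosolic enzymes higher lay between 2 and 3 and lower between 1 and 2, mitochondrial enzymes higher between 1 and 3, tRNA and elongation factors (tRNA factors) higher between 0 and 6 and lower between 1 and 2, amino acid response genes higher between 0 and 1 and lower between 12 and 15, and the compartment difference between 0.29 and 0.56. The gene called higher in the amino acid response was ATF4 without knockdown replicate 1 and DDIT4 without knockdown replicate 2. The compartment difference was 0.26 among members with 1 RefSeq mRNA accession. Against a fold of 1.5 (glmTreat), 254 transcripts were higher and 583 lower, with 1 cytosolic enzyme higher and 0 lower, 0 mitochondrial enzymes higher, and 0 tRNA factors higher and 1 lower. At an adjusted p under 0.01, 433 transcripts were higher and 686 lower, with 1 mitochondrial enzyme higher, 0 tRNA factors higher and 1 lower. No count of mitochondrial enzymes lower was above 0 in any alternative. The labels number the replicates of both groups, but the numbers share no stated origin. Deviations of same-numbered libraries correlated at 0.112. With the replicate block, 1672 transcripts were higher and 1859 lower. Those higher included 4 cytosolic enzymes (with FARSA and RARS), 5 mitochondrial enzymes (with EARS2, IARS2 and VARS2) and 7 tRNA factors. The cause of these shifts was not tested. Rows of low CPM were measured least closely, such as those of AIMP2 and SARS, whose SE reached 0.72 and 0.58. RefSeq lists 8 mRNA accessions for AIMP2 and 2 for SARS, and a row can hold a small part of a gene's reads. The parts of depth and annotation in these low counts were not tested.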
